A study of Homo sapiens with 4 samples.

Results

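The insulin-like growth factor (IGF) genes were examined in Daoy cells, an established human medulloblastoma line, in 2 EED-knockout libraries and 2 wild type libraries. The set comprised 8 of the 58174 genes listed, picked out of the files by symbol: the ligands IGF1 and IGF2, the receptors IGF1R, IGF2R and INSR, and the receptor substrates IRS1, IRS2 and IRS4. EED belongs to the Polycomb complex PRC2, whose mark on histone H3, H3K27me3, accompanies gene silencing. Neither genotype carried another allele or treatment that the labels name, and the sources used here do not say how EED was disrupted or whether a genotype was 1 clone or several cultures. The spread between libraries on which the p-values rest may therefore be technical.

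IGF1 and IGF2 are secreted growth factors that activate the tyrosine kinase receptor IGF1R and, for IGF2, also the short form of the insulin receptor INSR. The activated receptors phosphorylate the docking proteins of the IRS family, which recruit PI3-kinase and so lead to AKT. IGF2R, the cation-independent mannose 6-phosphate receptor, has no kinase and carries IGF2 to lysosomes for breakdown. IGF2 is an imprinted fetal gene read from several promoters, and mouse models of hedgehog-driven medulloblastoma depend on it.

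Library totals ranged from 17836112 to 19106382 estimated counts. EED itself had 340 and 490 counts in EED-knockout libraries, against 626 and 500 in wild type libraries. Both EED-knockout libraries were lower, but the log2 fold change of -0.49 did not pass the test (edgeR adjusted p = 0.878), and the level of EED RNA alone does not show whether protein was lost. VIM, a mesenchymal filament gene, stood at 4079.8 CPM in EED-knockout and 4033.0 CPM in wild type cells (CPM, the count relative to the library size scaled with TMM factors). NES, a further marker of the line, was low, at 6.53 CPM in EED-knockout and 4.74 CPM in wild type cells, and overlapped between genotypes. By mean abundance per transcript length, 14.7% of tested genes were lower than NES. CDKN2A, which is deleted in Daoy, had 0 counts in all 4 libraries, as had the granule neuron progenitor factor ATOH1. The granule lineage factor ZIC1 stood at 26.0 CPM in EED-knockout and 20.1 CPM in wild type cells. ZIC2, of the same lineage, went the other way, at 22.6 CPM in EED-knockout and 27.1 CPM in wild type cells. Both overlapped between genotypes. BARHL1 had 7 and 5 counts in EED-knockout libraries and 8 and 1 in wild type libraries. NEUROD1 had 3 and 0 counts in EED-knockout libraries and 5 and 4.3 in wild type libraries. The 9 marker genes of blood, epithelium, endothelium, liver and muscle summed to 107.8 and 75 counts in EED-knockout libraries and 27.3 and 96.4 counts in wild type libraries, with 0 counts for CD3E and MYF5 in all 4. In such bulk libraries fewer cells of a type and less RNA per cell cannot be told apart.

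The results turn in part on 3 pairs of transcripts that differ by a short stretch of coding sequence, among other differences given below. They are shown as GENCODE 29 gives them on GRCh38, 5′ to 3′, with 24 bases on each side. For IGF2, IGF2-002 begins its exon 3 with 9 extra bases, in capitals (chromosome 11, 2133666 to 2133674, minus strand), which IGF2-003 lacks.
IGF2-002: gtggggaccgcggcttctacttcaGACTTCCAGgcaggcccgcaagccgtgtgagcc
IGF2-003: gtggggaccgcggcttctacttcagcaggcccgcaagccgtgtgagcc
For the insulin receptor, INSR-001 holds the alternative exon 11, in capitals (36 bases, chromosome 19, 7150497 to 7150532, minus strand). INSR-002 skips it. The form without it, called IR-A, is the one that binds IGF2 with high affinity, and the form with it is called IR-B.
INSR-001: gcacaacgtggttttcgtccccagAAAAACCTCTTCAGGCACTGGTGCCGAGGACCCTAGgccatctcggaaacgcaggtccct
INSR-002: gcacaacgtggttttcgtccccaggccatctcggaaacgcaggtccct
For IGF1R, IGF1R-001 begins its exon 14 with 3 extra bases, in capitals (chromosome 15, 98929558 to 98929560, plus strand). IGF1R-002 does not.
IGF1R-001: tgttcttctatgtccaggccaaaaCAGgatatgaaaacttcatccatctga
IGF1R-002: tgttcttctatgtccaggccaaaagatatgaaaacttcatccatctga

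Of the ligands, IGF1 (ENSG00000017427; chromosome 12, 102395874 to 102481744, minus strand) was not detected: all 7 of its listed transcripts had 0 counts in each of the 4 libraries. A count of 0 allows up to 0.158 and 0.160 CPM in EED-knockout libraries and 0.165 and 0.166 CPM in wild type libraries, taking 3 counts as the limit. Such limits cover counting error only. HELLPAR, a noncoding gene that overlaps IGF1 on the opposite strand, had 947 and 952 counts in EED-knockout libraries and 974 and 911 in wild type libraries.

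IGF2 (ENSG00000167244; chromosome 11, 2129112 to 2149603, minus strand) was the member with the largest difference between genotypes. It had 89 and 26 counts in EED-knockout libraries, against 7 and 13 in wild type libraries. That was 4.68 and 1.39 CPM in EED-knockout cells and 0.385 and 0.717 CPM in wild type cells. Both EED-knockout libraries thus lay above both wild type libraries, but EED-knockout 1 stood far above the other 3. The endothelial cadherin CDH5 was also highest in EED-knockout 1, with 42 and 1 counts in EED-knockout libraries, against 3 and 6 in wild type libraries. The other endothelial marker, PECAM1, was highest in wild type 2, at 68.4 counts, and the epithelial keratin KRT5 in EED-knockout 2, at 46 counts. The part of such markers in the IGF2 difference was not tested. The exact Poisson intervals of the counts, at 95%, were 71.5 to 109.5 and 16.98 to 38.1 in the EED-knockout libraries and 2.81 to 14.4 and 6.92 to 22.2 in the wild type libraries. The EED-knockout libraries therefore differed from each other beyond counting error, while the interval of EED-knockout 2 overlapped that of wild type 2. The mean was 3.03 ± 2.33 CPM in EED-knockout and 0.551 ± 0.235 CPM in wild type cells (SD, n = 2 each). The log2 fold change was 2.45 (95% interval 0.71 to 4.18), a 5.45-fold difference, and 0.458% of the 18349 genes tested had one at least as high.

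Over all genes, neither the quasi-likelihood test of edgeR (adjusted p = 0.799, unadjusted p = 0.0125) nor DESeq2 (adjusted p = 0.339) called this difference. It rested in part on EED-knockout 1: without that library the log2 fold change was 1.32, and without EED-knockout 2 it was 3.06. The separation of the libraries is a common one, since 35.9% of tested genes had both EED-knockout libraries above or below both wild type libraries, and 17.9% of tested genes had them above. IGF2 was read at a low level throughout, and 6.51% of tested genes had a lower mean TPM (an abundance that divides the count by transcript length).

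The IGF2 counts fell on different transcripts in different libraries. IGF2-003, which starts at position 2137290, had 29.4 and 18.3 counts in EED-knockout libraries and 2.40 and 13 in wild type libraries. IGF2-002, which starts 1684 bases further upstream and carries the extra 9 bases shown above, had 53.5 and 6.58 counts in EED-knockout libraries and 0 in both wild type libraries. Set against 3 counts per library in wild type, the mean of IGF2-002 was 9.57-fold higher in EED-knockout cells, most of it from EED-knockout 1. This is not a lower bound, since it leaves out the error of the EED-knockout counts. It also leaves out the division of shared fragments, as IGF2-002 and IGF2-003 are both annotated with a last exon of 4112 bases. Their first exons are annotated with 746 and 103 bases, so the 9 bases are not all that separates them. In EED-knockout 2 the level of IGF2-002 was 0.351 CPM, where 3 counts are 0.165 CPM in wild type cells. In EED-knockout 1 IGF2-002 took 60.1% of the gene's counts, and in EED-knockout 2 it took 25.3%.

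The other starts had little. IGF2-001 had 4.60 counts in wild type 1 and 0 elsewhere, IGF2-009 had 4.59 in EED-knockout 1 and 0 elsewhere, and IGF2-007 had 1.57 and 1.13 in EED-knockout libraries and 0 in wild type libraries. IGF2-004 and IGF2-005 stayed below 1 count. Of the 7 transcripts 1, IGF2-003, passed the filter on low counts, and its log2 fold change was 1.57 (95% interval -1.24 to 4.38; edgeR adjusted p = 1.00). Kallisto divides fragments that match several transcripts by a model, so a split of so few counts is uncertain. The genes that overlap IGF2 had few or no counts: INS-IGF2 and MIR483 had 0 in every library and IGF2-AS, on the opposite strand, had 1 and 0 in EED-knockout and 0 and 1 in wild type libraries.

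**Figure D1:**
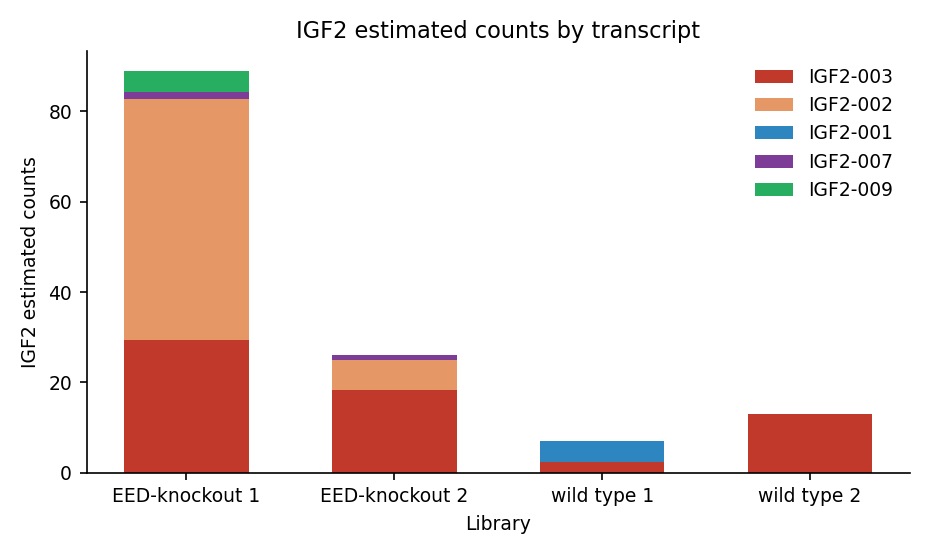
Estimated counts of IGF2 (y axis) in each library (x axis), stacked by transcript; transcripts below 1 count are left out. EED-knockout 1 holds 89 counts, mostly IGF2-002, against 26 in EED-knockout 2, 7 in wild type 1 and 13 in wild type 2.

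Of the receptors, IGF1R (ENSG00000140443; chromosome 15, 98648539 to 98964530, plus strand) had 1627 and 3887 counts in EED-knockout libraries, against 3674 and 2504 in wild type libraries. The corresponding levels were 85.5 and 207 CPM in EED-knockout and 202 and 138 CPM in wild type cells. The EED-knockout libraries held both the lowest and the highest value, and the genotypes overlapped. The log2 fold change was -0.22 (95% interval -1.18 to 0.75; edgeR adjusted p = 0.966), and it turned to 0.29 without EED-knockout 1 and to 0.085 without wild type 1. On the log2 scale the EED-knockout libraries differed by -1.28 (replicate 1 minus replicate 2) and the wild type libraries by 0.55, where the median absolute difference over tested genes was 0.37 and 0.27. EED-knockout pairs lay at least that far apart in 8.71% of tested genes. Relative to the wild type mean, IGF1R lay at -0.97 in EED-knockout 1 on the log2 scale, and the 20 nearest tested genes had a median of -0.28 there.

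Most IGF1R counts were on 2 full-length transcripts. IGF1R-001 stood at 5.72 and 14.2 TPM in EED-knockout libraries and 14.4 and 11.8 TPM in wild type libraries. IGF1R-002, which lacks the 3 bases, stood at 3.58 and 8.65 TPM in EED-knockout libraries and 6.48 and 3.34 TPM in wild type libraries. The share of IGF1R-002 in the sum of the pair was 38.5% and 37.9% in EED-knockout libraries, against 31.0% and 22.0% in wild type libraries. It was higher in both EED-knockout libraries, by 11.7 percentage points on average. The exact two-sided permutation p was 0.333, the smallest that test can give with 2 libraries against 2, so it cannot reach 0.05 and says nothing of this difference. EdgeR called neither transcript (log2 fold change -0.48 and 0.22; both adjusted p = 1.00). The pair also differs in the first exon, annotated with 705 and 632 bases. Among the shorter transcripts IGF1R-010 was the most abundant, at 4.39 and 7.98 TPM in EED-knockout libraries and 10.1 and 8.78 TPM in wild type libraries. The retained-intron transcript IGF1R-003 had 1.91 and 4.75 TPM in EED-knockout libraries and 0 and 1.38 TPM in wild type libraries. EdgeR called neither IGF1R-010 nor IGF1R-003 (both adjusted p = 1.00). The coding transcript IGF1R-011 had 2.91 and 3.77 TPM in EED-knockout libraries and 1.58 and 3.76 TPM in wild type libraries. IGF1R-004, IGF1R-005 and IGF1R-012, none over 583 bases, ranged from 0 to 3.78 TPM in EED-knockout and from 0 to 2.80 TPM in wild type libraries. Their values rest on few counts, at most 11.1 in any library, and the 3.78 TPM on 3.35 counts.

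IGF2R (ENSG00000197081; chromosome 6, 159969099 to 160113507, plus strand) was the most abundant member and the steadiest. It had 484 and 494 CPM in EED-knockout libraries, against 465 and 494 CPM in wild type libraries. The values of the genotypes overlapped, and the mean was 489 ± 7.05 CPM in EED-knockout and 479 ± 20.6 CPM in wild type cells (SD, n = 2 each). The log2 fold change of 0.03 had a 95% interval of -0.41 to 0.47 (edgeR adjusted p = 0.989), so changes beyond 1.38-fold in either direction lay outside it. The full-length transcript IGF2R-001 took 48.1 and 48.7 TPM in EED-knockout libraries and 41.6 and 48.4 TPM in wild type libraries. The short coding transcript IGF2R-005, at 10.3 and 23.5 TPM in EED-knockout and 12.6 and 24.5 TPM in wild type libraries, made up most of the remaining TPM. The retained-intron transcript IGF2R-004 had 0 and 3.71 TPM in EED-knockout libraries and 0.898 and 5.28 TPM in wild type libraries, on at most 7.77 counts. AIRN, the antisense RNA that silences this gene by imprinting in the mouse, had 0 and 2 counts in EED-knockout libraries and 0 and 1 in wild type libraries.

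INSR (ENSG00000171105; chromosome 19, 7112255 to 7294034, minus strand) had 378 and 384 counts in EED-knockout libraries, against 237 and 387 in wild type libraries. Wild type 1 stood below the other 3, and the genotypes overlapped. The levels were 20.2 ± 0.431 CPM in EED-knockout and 17.2 ± 5.89 CPM in wild type cells (SD, n = 2 each). The log2 fold change was 0.23 (95% interval -0.46 to 0.92; edgeR adjusted p = 0.945). Its summed TPM was 4.47 and 4.0015 in EED-knockout libraries and 2.79 and 7.25 in wild type libraries. On that scale the sign of the difference turned, to -0.096 in log2(TPM + 1), and the edgeR log2 fold change was -0.081 without wild type 1. A 653-base coding transcript, INSR-004, had 1.72 TPM in wild type 2 and 0 in the other 3 libraries.

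The exon 11 form made up a larger share of INSR in both EED-knockout libraries. INSR-001, with exon 11, stood at 1.59 and 1.56 TPM in EED-knockout libraries, against 0.322 and 1.30 TPM in wild type libraries. INSR-002, without exon 11, stood at 2.28 and 2.37 TPM in EED-knockout libraries, against 1.68 and 2.53 TPM in wild type libraries, and was thus the larger form in every library. INSR-001 took 41.1% and 39.6% of coding INSR TPM in EED-knockout libraries, against 16.1% and 23.4% in wild type libraries. The mean share was 40.4 ± 1.07% in EED-knockout and 19.7 ± 5.17% in wild type cells (SD, n = 2 each), a difference of 20.7 percentage points. Here too the exact two-sided permutation p was 0.333, the smallest that test can give.

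Counted only over the 2 transcripts that span exon 11, the share in wild type 2 was 33.9% and the difference 15.4 percentage points. By estimated counts, the share of coding INSR was 27.4% and 26.4% in EED-knockout libraries and 9.30% and 21.3% in wild type libraries. Wild type 1, which had 237 INSR counts, held the lowest share by each measure. Neither transcript passed edgeR's test, with log2 fold changes of 0.93 (95% interval -0.98 to 2.83) for INSR-001 and 0.08 (-0.68 to 0.84) for INSR-002. The last exon of INSR-001 is annotated with 784 bases and that of INSR-002 with 5156, so reads from the 3′ end also separate them, and the share is not a measure of exon 11 alone.

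**Figure D2:**
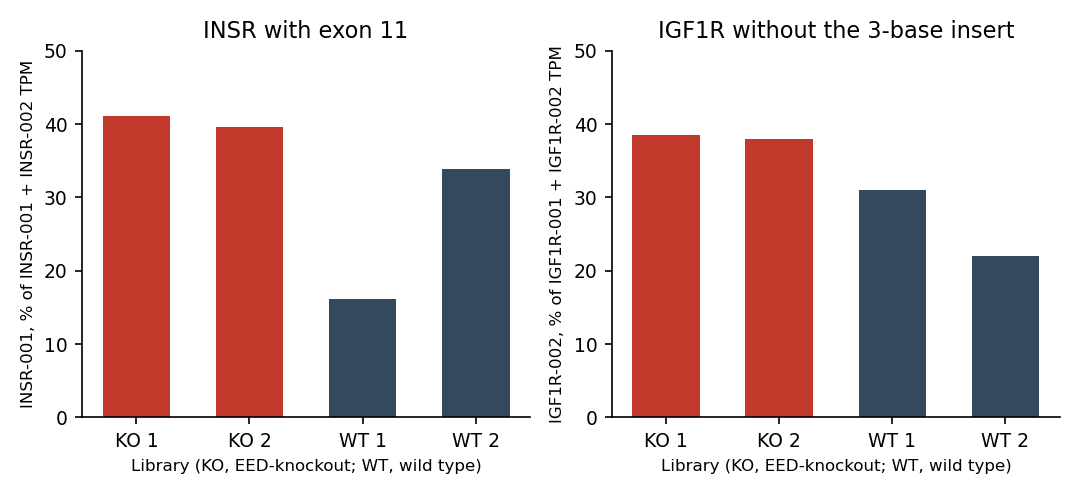
Share of the exon 11 transcript INSR-001 in INSR-001 plus INSR-002 (left) and of IGF1R-002 in IGF1R-001 plus IGF1R-002 (right), in percent of TPM (y axes), with 1 bar per library (x axes). Both EED-knockout bars are above both wild type bars in each panel, at 41.1% and 39.6% in EED-knockout and 16.1% and 33.9% in wild type for INSR, and at 38.5% and 37.9% in EED-knockout and 31.0% and 22.0% in wild type for IGF1R.

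Of the receptor substrates, IRS1 (ENSG00000169047; chromosome 2, 226731317 to 226799759, minus strand), the docking protein that links IGF1R to PI3-kinase, had 616 and 590 counts in EED-knockout libraries, against 707 and 654 in wild type libraries. Both EED-knockout libraries lay below both wild type libraries, at 31.9 ± 0.650 CPM in EED-knockout and 37.5 ± 1.96 CPM in wild type cells (SD, n = 2 each). The replicates lay close together, and the log2 fold change of -0.23 had a 95% interval of -0.69 to 0.23 (edgeR adjusted p = 0.911). Its sign was the same under all 13 alternatives, which ranged from -0.34 to -0.18. Of all tested genes, 18% had both EED-knockout libraries below both wild type libraries. The coding transcript IRS1-001 had 4.71 and 4.58 TPM in EED-knockout libraries and 5.15 and 5.20 TPM in wild type libraries. The 506-base IRS1-002 had 1.97 and 0.683 TPM in EED-knockout libraries and 1.93 and 2.84 TPM in wild type libraries, on at most 9.47 counts.

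IRS2 (ENSG00000185950; chromosome 13, 109752698 to 109786568, minus strand), a related docking protein prominent in liver and pancreatic islets, had 316 and 201 counts in EED-knockout libraries, against 249 and 259 in wild type libraries. The EED-knockout libraries held the highest and the lowest value. The means were 13.7 ± 4.16 CPM in EED-knockout and 14.0 ± 0.444 CPM in wild type cells (SD, n = 2 each), and the log2 fold change was -0.03 (95% interval -0.73 to 0.66; edgeR adjusted p = 0.994). IRS4 (ENSG00000133124; chromosome X, 108732482 to 108736409, minus strand), a substrate that is silent in most adult tissues, was near the limit of detection. It had 4.35 and 1.00 counts in EED-knockout libraries, against 2.00 and 2.00 in wild type libraries, and it did not pass the filter on low counts.

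Of the 8 members 6 passed that filter, and edgeR called 0 of them, against 0% of the 18349 genes tested. At an unadjusted p under 0.05 the members held 1, IGF2, against 5.9% of tested genes, 2.85% being higher in EED-knockout cells, and DESeq2 called 0 members against 0.4% of the genes to which it gave an adjusted p. Of the 47 member transcripts 12 were tested, and edgeR called 0 of them against 0% of 56858 transcripts. At an unadjusted p under 0.05 it found 0 of the 12, against 4.64% of all. Of the 6, IGF2 and IRS1 did not overlap between genotypes in CPM and the other 4 did, and of all tested genes 35.9% did not overlap.

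**Figure D3:**
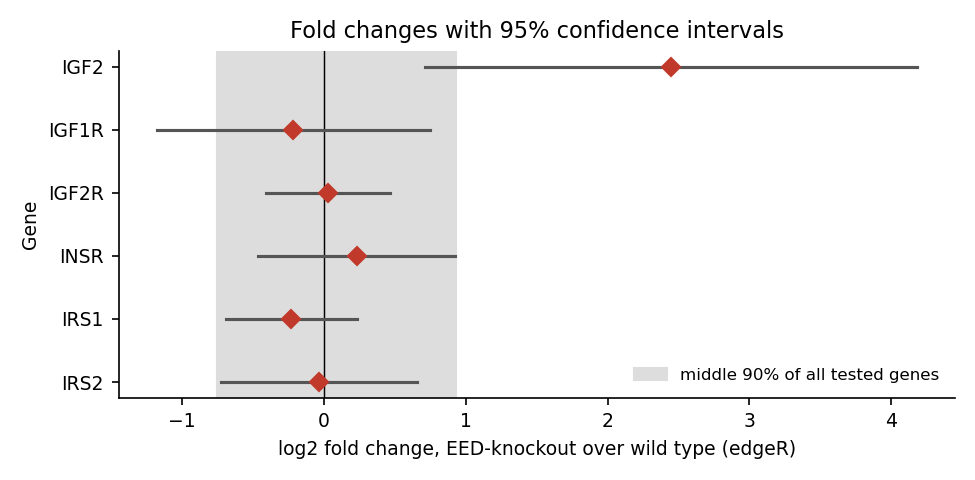
Log2 fold change of EED-knockout over wild type (x axis; diamonds) with its 95% interval (lines) for the 6 members tested (y axis). The grey band is the middle 90% of all tested genes, from -0.75 to 0.93; IGF2 at 2.45 lies outside it and the other 5 lie inside.

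Set in order of level, per length, IGF2R had the most RNA, with a mean of 67.5 TPM over the 4 libraries and a range of 55.1 to 78.8. IGF1R followed at 36.5 TPM (21.4 to 47.9), then IRS1 at 6.76 TPM (5.26 to 8.04), INSR at 4.63 TPM (2.79 to 7.25) and IRS2 at 2.24 TPM (1.74 to 2.75). IGF2 at 0.617 TPM (0.0934 to 1.71), IRS4 at 0.0437 TPM (0.0187 to 0.0814) and IGF1 at 0 came last. Of the neighbours in this order, IRS1 and INSR had overlapping ranges, although IRS1 was above INSR in each of the 4 libraries, and the others did not overlap. These sums include short transcripts, and INSR-004 held 23.7% of INSR TPM in wild type 2.

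The receptors stood in unequal proportions. IGF2R exceeded IGF1R in TPM by 2.79- and 1.60-fold in EED-knockout libraries and by 1.28- and 2.32-fold in wild type libraries. IGF1R exceeded INSR by 4.78- and 12.0-fold in EED-knockout libraries and by 15.4- and 4.68-fold in wild type libraries, and IRS1 exceeded IRS2 by 2.43- and 3.03-fold in EED-knockout libraries and by 3.33- and 3.41-fold in wild type libraries. The first 2 ratios overlapped between genotypes. The TPM sums include short transcripts, so the ratios depend on how these are counted. In EED-knockout 1, the full-length IGF1R-001 and IGF1R-002 held 57.1% and 35.4% of IGF1R counts, but 26.8% and 16.8% of its TPM. In TPM the ratio of IRS1 to IRS2 was lower in both EED-knockout libraries, and it was not tested. That separation depends on the measure. IRS1 stood at 32.4 and 31.5 CPM in EED-knockout libraries and 38.9 and 36.1 CPM in wild type libraries. IRS2 stood at 16.6 and 10.7 CPM in EED-knockout libraries and 13.7 and 14.3 CPM in wild type libraries. On that scale the ratio overlapped between genotypes and was highest in EED-knockout 2. In wild type 2, the 506-base IRS1-002 held 35.3% of IRS1 TPM on 1.45% of IRS1 counts.

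**Figure D4:**
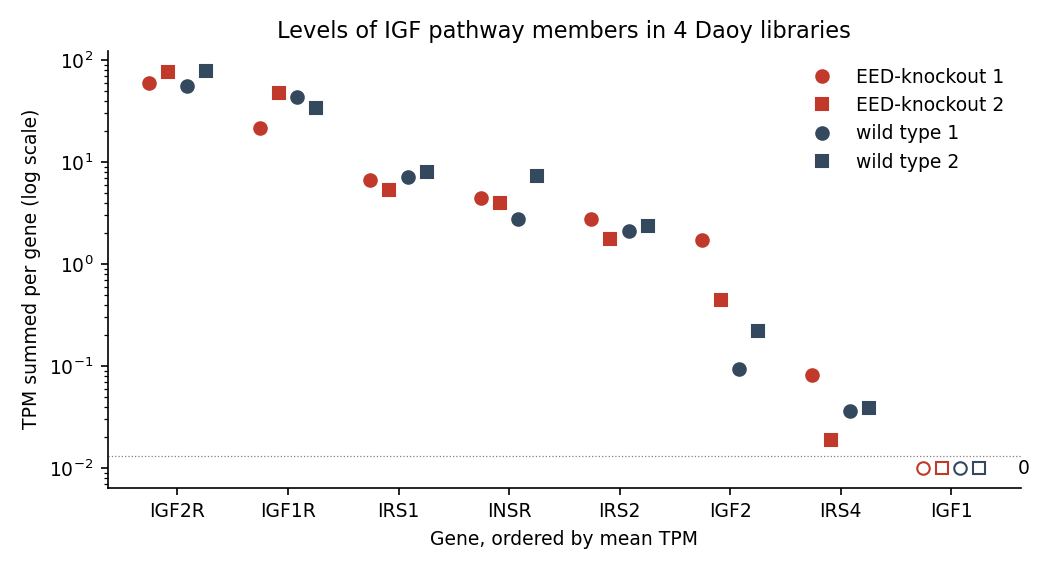
TPM summed per gene (y axis, log scale) for the 8 members (x axis, ordered by mean), with 1 symbol per library and open symbols at the bottom for values of 0. IGF2R and IGF1R lie above 20 TPM in all 4 libraries, and IGF1 is at 0 in each.

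The promoters of the members differ in CpG content, and PRC2 is known to occupy CpG islands of genes that are not transcribed. RefSeq promoter sequences (GRCh38.p14, 250 bases before to 50 after the start) were matched for 7 members, all but IGF2. The 2-letter motif CG, the same on both strands, was counted, and 96.0% of 35116 promoters of that length held it at least once, with a median of 14. That of IGF1R held 55 (99.6% of promoters had fewer), IRS2 50, IRS1 47, IGF2R 41 and INSR 36. The 2 starts of IRS4, which was barely detected, held 26 and 23. The 2 starts of IGF1, with no count in any library, held 1 and 0. The upstream IGF1 start and the IGF1R start are printed as the ends of this range, with each CG in capitals.
IGF1, chr12:102481698-102481997, minus strand: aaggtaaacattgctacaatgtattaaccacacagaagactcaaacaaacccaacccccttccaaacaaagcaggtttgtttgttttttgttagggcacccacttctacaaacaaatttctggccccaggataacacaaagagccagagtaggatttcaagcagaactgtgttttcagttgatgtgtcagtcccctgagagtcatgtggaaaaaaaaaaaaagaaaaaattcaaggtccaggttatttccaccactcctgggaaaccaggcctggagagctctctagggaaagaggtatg
IGF1R, chr15:98648289-98648588, plus strand: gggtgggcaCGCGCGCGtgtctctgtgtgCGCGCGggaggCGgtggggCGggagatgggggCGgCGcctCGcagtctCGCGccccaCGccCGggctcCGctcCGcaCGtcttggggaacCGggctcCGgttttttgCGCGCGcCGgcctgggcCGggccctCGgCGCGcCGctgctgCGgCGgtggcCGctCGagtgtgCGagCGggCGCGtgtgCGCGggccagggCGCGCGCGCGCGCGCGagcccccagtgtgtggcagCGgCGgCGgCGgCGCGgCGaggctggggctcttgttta
The motif count describes the letters of these windows and not the state of the chromatin, which was not measured here.

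Genes around IGF2 on the same chromosome arm were set beside it. The imprinted noncoding RNA H19 had 18 and 23 counts in EED-knockout libraries, against 2 and 10 in wild type libraries. As with IGF2, both EED-knockout libraries were above both wild type libraries. Which EED-knockout library was higher depends on the measure. In counts it was EED-knockout 2, unlike IGF2. In TPM it was EED-knockout 1, with H19 at 2.05 and 0.962 in EED-knockout libraries and 0.108 and 0.468 in wild type libraries. H19 differed by 1.70 on the log2 scale (95% interval -0.21 to 3.61), and edgeR did not call it (adjusted p = 0.857). LSP1, a leukocyte actin-binding protein, had 13.3 and 21.3 counts in EED-knockout and 5.2 and 12.1 in wild type libraries (log2 fold change 0.93, adjusted p = 0.895). INS, INS-IGF2 and ASCL2 had 0 counts in all 4 libraries. NAP1L4, a histone chaperone, had 3508 and 2257 counts in EED-knockout and 2149 and 2285 in wild type libraries, which overlapped. Of the 17 listed neighbours 9 were tested, edgeR called 0, 0 had an unadjusted p under 0.05, and the median log2 fold change was 0.20 against 0.01 over all tested genes. Relative to the wild type mean, the 20 tested genes nearest to IGF2 had a median of 0.48 on the log2 scale in EED-knockout 1 and 0.10 in EED-knockout 2, where IGF2 itself was at 2.91 and 1.23.

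Genes of proteins that act on IGF2 RNA or transcription numbered 10, of which 9 were tested. Of these edgeR called 0. At an unadjusted p under 0.05 there were 2, both lower, against 5.9% of all tested genes in either direction, and the median log2 fold change was -0.14. LIN28B, which blocks let-7 maturation, stood at 10.3 ± 1.75 CPM in EED-knockout and 21.6 ± 8.85 CPM in wild type cells, and the chromatin factor HMGA2 at 261 ± 43.8 CPM in EED-knockout and 449 ± 162 CPM in wild type cells (SD, n = 2 each; edgeR adjusted p = 0.799 and 0.808). The cell-cycle factor E2F3 stood at 60.5 ± 19.5 CPM in EED-knockout and 79.3 ± 15.9 CPM in wild type cells, and overlapped between genotypes. The IGF2 mRNA-binding protein IGF2BP1 stood at 146 ± 17.9 CPM in EED-knockout and 172 ± 29.2 CPM in wild type cells, and its relative IGF2BP2 at 124 ± 34.1 CPM in EED-knockout and 136 ± 23.9 CPM in wild type cells. Both overlapped between genotypes. CTCF, the insulator protein of the IGF2 and H19 imprinting control region, stood at 91.5 ± 2.21 CPM in EED-knockout and 82.2 ± 8.43 CPM in wild type cells. For LIN28B and HMGA2 both EED-knockout libraries were below both wild type libraries in CPM, and for CTCF both were above. Of the 9 genes, 2 thus lay below, 1 lay above and 6 overlapped. Over all tested genes 18% lay below and 17.9% above.

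Of 46 genes of downstream signalling, from the adaptors to AKT, mTOR and MAP kinases, 44 were tested. Of these edgeR called 0 and 1 had an unadjusted p under 0.05, against the same 5.9% of all tested genes, and the median log2 fold change was 0.02. PIK3R1, the regulatory subunit that binds phosphorylated IRS proteins, stood at 23.3 ± 3.57 CPM in EED-knockout and 39.2 ± 5.64 CPM in wild type cells (log2 fold change -0.75, 95% interval -1.29 to -0.20, adjusted p = 0.799). In CPM both EED-knockout libraries were below both wild type libraries, as they were for IRS1, for 8 of these 44 genes and for 18% of all tested genes. In TPM, PIK3R1 overlapped between genotypes, at 9.24 and 10.48 in EED-knockout libraries and 10.5 and 9.81 in wild type libraries. Its difference therefore depends on the measure. RHEB, the GTPase that activates mTOR, stood at 158 ± 5.14 CPM in EED-knockout and 224 ± 52.8 CPM in wild type cells. RPTOR, an mTOR partner, stood at 58.0 ± 5.98 CPM in EED-knockout and 43.1 ± 3.89 CPM in wild type cells. The insulin gene INS had 0 counts in all libraries. Of 12 genes that FOXO factors induce, as they do INSR and IRS2, all were tested, edgeR called 0, and 1 had an unadjusted p under 0.05, against 5.9% of all tested genes. The median log2 fold change was -0.09, with 4 genes higher and 8 lower. CITED2, a transcriptional co-regulator, stood at 14.0 ± 3.60 CPM in EED-knockout and 27.8 ± 2.38 CPM in wild type cells (log2 fold change -0.99, adjusted p = 0.799). TXNIP, an inhibitor of glucose uptake, stood at 1.45 ± 0.547 CPM in EED-knockout and 2.89 ± 1.04 CPM in wild type cells, and the pseudokinase gene TRIB1 at 26.4 ± 6.65 CPM in EED-knockout and 35.1 ± 2.97 CPM in wild type cells. In these 3 both EED-knockout libraries were below both wild type libraries. Of the 12 genes, 3 lay below in this way, 2 lay above and 7 overlapped. Over all tested genes 18% lay below and 17.9% above. The cyclin gene CCNG2 stood at 20.7 ± 7.72 CPM in EED-knockout and 14.5 ± 0.695 CPM in wild type cells, with both EED-knockout libraries above.

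**Figure D5:**
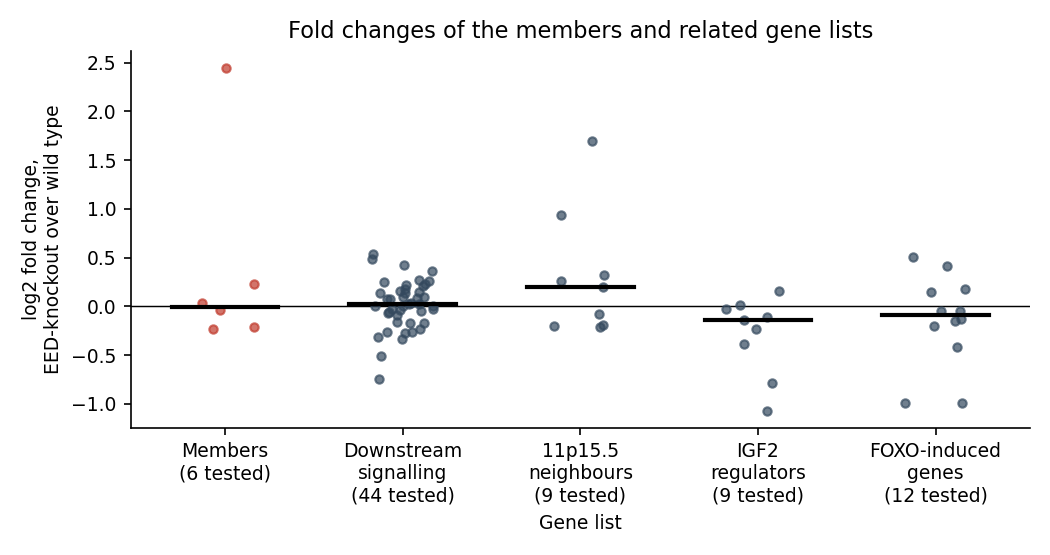
Log2 fold change of EED-knockout over wild type (y axis) for each tested gene of 5 lists (x axis); black bars are medians. Medians lie between -0.14 and 0.20, and IGF2 at 2.45 and H19 at 1.70 are the highest points.

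The genes whose levels followed that of IGF2 most closely were sought among 13997 autosomal protein-coding genes, by the distance between log2 CPM profiles centred over the 4 libraries. The nearest was NPTX1, a neuronal pentraxin, at a distance of 0.203, with 223 and 63 counts in EED-knockout libraries, against 23 and 38 in wild type libraries. The homeobox factor CUX2 (0.279), RGCC (0.390), the activin subunit INHBB (0.426) and the ligand BMP6 (0.512) followed. CUX2 had 48 and 16 counts in EED-knockout libraries, against 4 and 6 in wild type libraries, and BMP6 had 69 and 24 in EED-knockout libraries, against 5 and 16 in wild type libraries. That they share the order of IGF2 over the libraries follows from how they were chosen.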

How the data were processed

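Kallisto 0.43.1 and build hg38 are named in the submitters' processing notes. The authors deposited 1 kallisto table per library, with an estimated count and a TPM value (abundance relative to effective length) for each transcript, per the file headers. The sources used here do not give the annotation release, run settings or strandedness. Estimated counts were summed per gene identifier and rounded. EED-knockout was set against wild type with edgeR 4.0.16, quasi-likelihood F test (R 4.3.3, TMM factors, filterByExpr with minimum count 10 and minimum total 15, no covariate, 18349 genes), with Benjamini-Hochberg adjustment over all genes and a threshold of 0.05; transcripts were fitted the same way. The 95% intervals use a standard error taken from the fold change and its F value. All tests were two-sided. The edgeR, DESeq2 and voom fits were checked on simulated counts, where they recovered the simulated fold changes but made more false calls than the nominal rate. Alternatives comprised RLE size factors, other filters, DESeq2 1.42.0, limma 3.58.1 (voom, and trend on log2(TPM + 1) and log2(TPM + 0.1)), replicate number as a block and leaving out each library. Positions come from GENCODE 29 (GRCh38, the same build), in which 45 of 47 member transcripts were found. The members and lists were chosen with earlier results of these data known. Named were all members, all IGF2 transcripts, receptor and substrate transcripts with a mean of at least 1 TPM, and up to 6 genes of each list in order of p, with genes at 0 counts; INSR-004 was added after its values were seen.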

Additional observations from a re-analysis of the deposited data

How the results depend on the processing

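With 2 libraries per genotype, edgeR called 0 genes over the whole table, with 1082 at an unadjusted p under 0.05. DESeq2 called 35 genes higher and 44 lower, and leaving out each library in turn gave 0 to 15 higher and 0 to 10 lower, the highest counts coming without EED-knockout 1 (15 higher, 8 lower) and without wild type 2 (9 higher, 10 lower). None of the 13 alternatives called a member. The IGF2 log2 fold change kept its sign in all 13, from 0.78 to 3.06, with adjusted p from 0.310 to 1.00. The lowest was on the log2(TPM + 1) scale, where the pseudocount is large beside the gene's level. Leaving out a library gave log2 fold changes of -0.998 to 0.288 for IGF1R (0.085 without wild type 1), -0.013 to 0.066 for IGF2R, -0.081 to 0.62 for INSR and -0.38 to 0.24 for IRS2, so their signs are not settled, and the cause was not tested. INSR was at -0.096 and -0.089 on the log2(TPM + 1) and log2(TPM + 0.1) scales. The difference in the INSR exon 11 share was 11.6 percentage points by estimated counts and kept its direction without each library. The labels do not say whether libraries with the same replicate number were handled together. Replicate differences correlated over genes with r = -0.141 between the genotypes, which does not settle it. With the replicate block edgeR called 0 genes and IGF2 was at 2.24, and with crossed numbers, added after seeing the data, it also called 0. Depth limits IGF1, IRS4 and the IGF2 transcripts, whose values rest on at most 53.5 counts. It also limits the short transcripts IGF1R-004, IGF1R-005, IGF1R-012, IGF2R-004, IRS1-002 and INSR-004, with at most 11.1 counts in any library.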
